A study of Mus musculus with 3 samples.

Results

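The Notch pathway was examined through 10 of its genes in single-cell RNA sequencing of regenerating mouse muscle. These were the receptors Notch1, Notch2 and Notch3, the ligands Dll1, Dll4, Jag1 and Jag2, and the target genes Hes1, Hey1 and Heyl. They were picked by symbol from the 32285 features in the gene lists of the files, and all 10 were found there once. The C57BL/6J mice had received barium chloride into the tibialis anterior, a front muscle of the lower leg, and the muscle was taken 4 days later. The groups were young mice of 3 to 4 months given PBS, old mice of 24 to 26 months given PBS, and old mice of 24 to 26 months given recombinant METRNL (meteorin-like, a secreted protein; rMETRNL) by injection into the muscle. Each group was 1 library from a pool of 3 animals, so no test between groups was possible and the spread between mice was not measured.

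Notch signalling runs between touching cells. A Delta or Jagged ligand on one cell pulls on a Notch receptor on its neighbour, enzymes then cut the receptor, and the freed intracellular part enters the nucleus, where it joins RBPJ and Mastermind-like proteins at target genes such as those of the Hes and Hey families of repressors. In muscle the pathway is known for holding stem cells in an undifferentiated state, and in vessels for artery formation, for the choice of tip cells in sprouting and for the contact between endothelium and pericytes.

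All positions are on GRCm38. Among the receptors, Notch1 lies on the minus strand at chr2:26457903-26516663, Notch2 on the plus strand at chr3:98013527-98150361 and Notch3 on the minus strand at chr17:32120820-32166852. Of the ligand genes, Dll1 spans chr17:15367354-15376872 on the minus strand and Dll4 chr2:119325784-119335962 on the plus strand, while Jag1 spans chr2:137081456-137116644 and Jag2 chr12:112907819-112929776, both on the minus strand. The target genes lie at chr16:30064384-30067796 on the plus strand (Hes1), chr3:8663359-8667256 on the minus strand (Hey1) and chr4:123233556-123249875 on the plus strand (Heyl).

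Promoter windows of 300 bases from RefSeq on GRCm38.p6 were found for 7 of the 10 genes, with 8 windows in all. Those of the ligands Dll1, Dll4 and Jag1 are shown, because their transcripts had different cell class patterns and Dll1 differed between the libraries in several classes. All bases are in lower case except matches to the E-box CAGCTG, the letters that myogenic bHLH factors are known to bind. The 2 Dll1 windows are chr17:15375774-15376073 and chr17:15376883-15377182, both on the minus strand.
Dll1 window at chr17:15375774-15376073: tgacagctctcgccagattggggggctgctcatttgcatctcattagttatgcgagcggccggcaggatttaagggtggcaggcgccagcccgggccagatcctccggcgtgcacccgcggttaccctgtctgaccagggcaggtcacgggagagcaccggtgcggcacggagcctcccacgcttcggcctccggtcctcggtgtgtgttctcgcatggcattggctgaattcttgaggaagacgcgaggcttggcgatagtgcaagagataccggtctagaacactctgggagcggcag
Dll1 window at chr17:15376883-15377182: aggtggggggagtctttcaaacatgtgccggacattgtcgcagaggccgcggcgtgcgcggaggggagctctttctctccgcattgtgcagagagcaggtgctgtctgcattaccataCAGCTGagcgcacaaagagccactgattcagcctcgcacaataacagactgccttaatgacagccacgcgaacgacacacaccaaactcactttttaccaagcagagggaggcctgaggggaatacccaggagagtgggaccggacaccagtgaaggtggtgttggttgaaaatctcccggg
Jag1 window at chr2:137116471-137116770, minus strand: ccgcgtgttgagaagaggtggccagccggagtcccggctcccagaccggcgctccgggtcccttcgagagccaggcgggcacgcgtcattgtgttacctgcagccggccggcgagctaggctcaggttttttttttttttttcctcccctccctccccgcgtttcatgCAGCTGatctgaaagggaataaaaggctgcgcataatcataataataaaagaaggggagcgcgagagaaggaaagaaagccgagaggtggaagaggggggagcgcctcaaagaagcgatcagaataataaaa
Dll4 window at chr2:119325534-119325833, plus strand: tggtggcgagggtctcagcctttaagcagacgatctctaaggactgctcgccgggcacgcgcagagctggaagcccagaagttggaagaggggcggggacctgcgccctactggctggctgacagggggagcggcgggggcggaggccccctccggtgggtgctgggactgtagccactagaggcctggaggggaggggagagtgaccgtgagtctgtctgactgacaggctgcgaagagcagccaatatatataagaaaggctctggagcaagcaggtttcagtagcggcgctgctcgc
The E-box stood 1 time in the second Dll1 window, 132 bases before the start site of that window, and 1 time in the Jag1 window, 82 bases before its start site. For Dll1 and Jag1 these start sites differ from the gene ends given above. The first Dll1 window lies within the Dll1 span, and the Jag1 E-box lies within the Jag1 span. It stood in 16.3% of all 32851 windows of this length. The RBPJ core GTGGGAA, searched on both strands, was in 6.38% of all windows and in none of the 8 windows of these genes, which says only that these letters are not in those 300 bases. CAGCTG reads the same on both strands and does not overlap the RBPJ core.

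The libraries held 12168 cell barcodes for young PBS, 12568 for old PBS and 14012 for old rMETRNL, with medians of 14951, 12466 and 13558 UMIs (transcript molecules counted once each) per barcode. After filtering, 31806 cells remained. Clusters were named from marker genes, and a class name such as endothelial stands for cells like that type by transcripts. The members themselves were left out of the clustering. Every gene of a class's own marker list had UMIs in that class in every library. The dendritic class had 1861, 2350 and 1707 CPM of its 12 markers together and 3606, 3266 and 3209 CPM of the 14 macrophage/monocyte markers, which stood at 26662 to 28872 CPM in macrophages/monocytes. There were 7 classes with at least 100 cells in every library: MuSC/myoblast (muscle stem cells and their dividing progeny), endothelial, FAP (fibro-adipogenic progenitors, the resident connective tissue cells), tenocyte, macrophage/monocyte, dendritic and T/NK. Pericyte/smooth muscle, myocyte (differentiating muscle), mature fibre and Schwann/glial cells were fewer and are given as values alone. Endothelial cells differed in depth, with medians of 10979 UMIs in young PBS, 3705 in old PBS and 6642 with rMETRNL. In the same order, the share of endothelial cells in 4 sub-clusters of low depth was 22.4%, 63.5% and 46.8%.

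A level is the UMI count of a gene over all cells that a class had in 1 library, scaled to a common class total (CPM), and is given with its exact 95% Poisson interval or as the bare value, always in the order young PBS, old PBS and old rMETRNL. These intervals, and those of the ratios, cover counting error only.

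**Figure D1:**
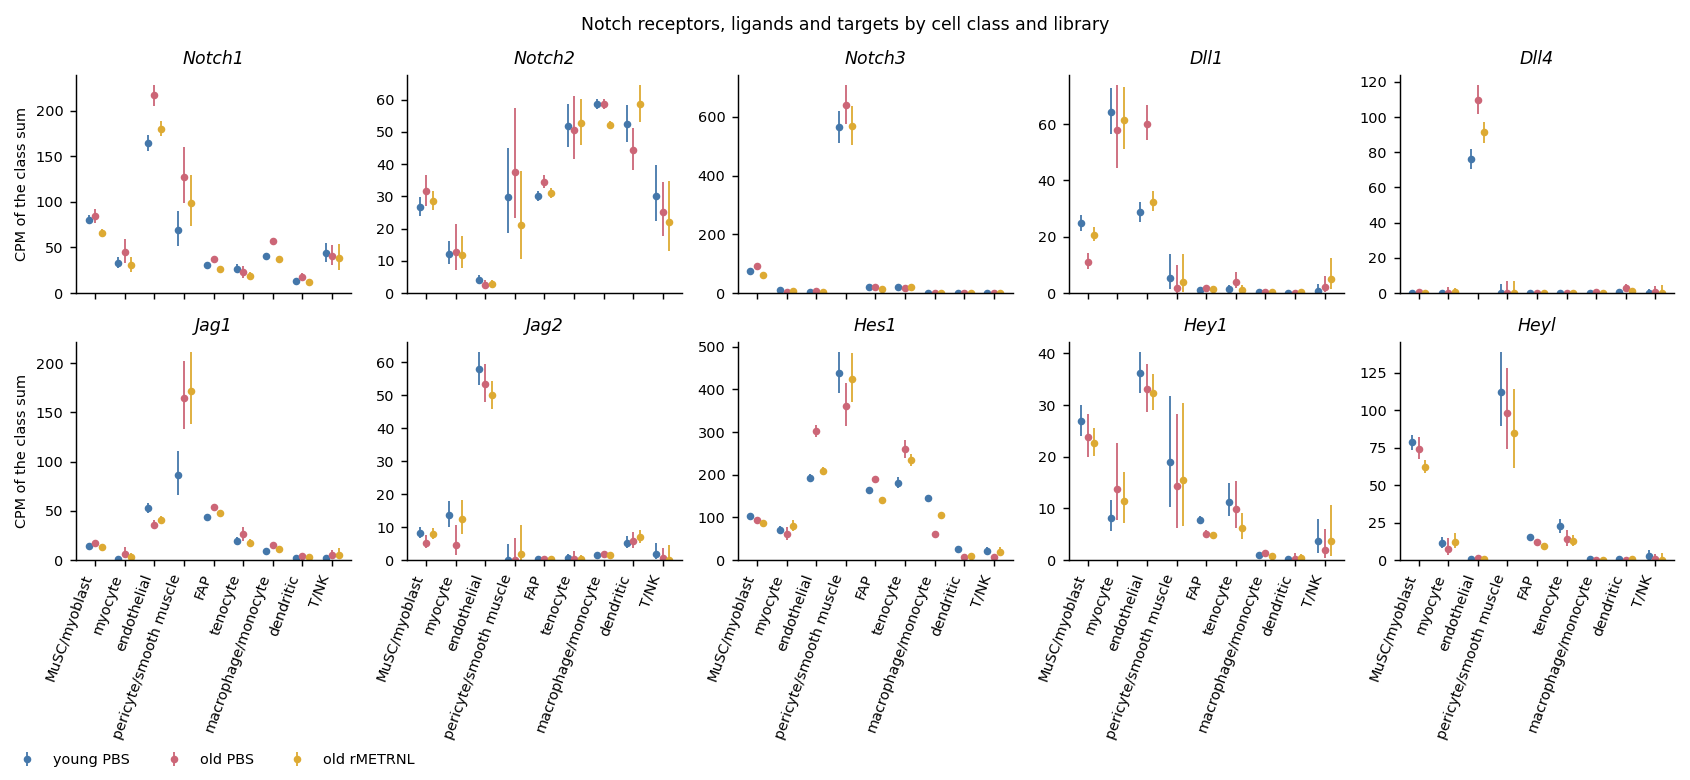
Levels of the 10 genes, 1 panel each, in the 7 classes and in myocytes and pericyte/smooth muscle cells, in CPM on linear axes that differ between panels, with 1 coloured point per library and bars for the exact 95% Poisson interval. Notch3 and Heyl peaked in pericyte/smooth muscle cells and Dll4 in endothelial cells. Dll1 was highest in myocytes in young PBS and old rMETRNL and about equal in myocytes and endothelial cells in old PBS, at 57.7 and 60.1 CPM.

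Of the receptors, Notch1 was carried above all by endothelial cells, at 164 (156 to 173), 217 (205 to 229) and 180.0 (172 to 188) CPM, and by the few Schwann/glial cells, at 131, 176 and 249 CPM, and over all libraries together the intervals of these 2 classes overlapped. Pericyte/smooth muscle cells had 68.9, 127 and 98.5 CPM and MuSC/myoblasts 80.6, 84.3 and 65.6 CPM. The former lay above the latter over the libraries together and below them in young PBS. Notch1 was also present in macrophages/monocytes at 40.4, 56.6 and 36.9 CPM and in T/NK cells, of which T cells need it for their development, at 43.9, 40.6 and 37.9 CPM.

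Notch2, the receptor most used in myeloid and B-lineage cells, was spread over many classes. It stood at 58.6 (57.1 to 60.2), 58.5 (56.98 to 60.1) and 52.1 (50.8 to 53.5) CPM in macrophages/monocytes, 52.4, 44.3 and 58.7 CPM in dendritic cells and 51.8, 50.7 and 52.7 CPM in tenocytes. The pooled levels of Schwann/glial cells, macrophages/monocytes, dendritic cells and tenocytes each overlapped the next in order. MuSC/myoblasts had 26.7, 31.5 and 28.6 CPM and endothelial cells 4.03, 2.44 and 2.84 CPM.

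Notch3, the receptor of vascular smooth muscle, reached 564 (512 to 621), 639 (574 to 709) and 568 (505 to 636) CPM in the pericyte/smooth muscle cells, which numbered 85, 104 and 86. Its second class was the MuSC/myoblasts, at 76.4 (71.5 to 81.5), 92.7 (84.8 to 101) and 60.8 (56.5 to 65.3) CPM, and tenocytes followed at 20.2, 18.5 and 18.9 CPM. The level in FAPs, 20.6, 21.4 and 14.5 CPM, overlapped that of tenocytes over the libraries together. T/NK cells had no UMI of Notch3 in any library. Endothelial cells had 3.59, 5.38 and 3.33 CPM.

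Of the ligands, Dll4 was close to restricted to endothelium, with 75.9 (70.4 to 81.8), 109.7 (102 to 118) and 91.3 (85.5 to 97.4) CPM there. Its next level over the libraries together was 1.41 CPM, in dendritic cells, and pericyte/smooth muscle cells had 0 UMIs. Macrophages/monocytes, the largest class, held 12, 34 and 22 UMIs of it. Dll4 is the ligand that tip cells and arteries present to neighbouring endothelium.

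Dll1, the ligand that differentiating muscle cells present to the stem cells beside them, was led by myocytes over the libraries together, at 64.3 (56.4 to 72.9), 57.7 (44.4 to 73.9) and 61.5 (51.1 to 73.3) CPM from 92, 24 and 51 cells. Endothelial cells had 28.8, 60.1 and 32.4 CPM, so that in old PBS their intervals overlapped, and MuSC/myoblasts 24.7, 11.2 and 20.8 CPM. All other classes were below 5 CPM over the libraries together.

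Jag1, a ligand of vessel walls and stroma, was most abundant in pericyte/smooth muscle cells, at 86.4 (66.5 to 110.3), 165 (133 to 202) and 172 (138 to 211) CPM. Schwann/glial cells and FAPs followed with overlapping intervals over the libraries together, FAPs at 44.1, 54.2 and 47.5 CPM and endothelial cells 52.6, 35.9 and 40.3 CPM. Tenocytes, MuSC/myoblasts and macrophages/monocytes were lower, the last at 8.95, 15.02 and 11.5 CPM. Jag2, a ligand best known from arteries and epithelia, stood at 57.95 (53.1 to 63.1), 53.5 (47.8 to 59.6) and 49.9 (45.7 to 54.4) CPM in endothelium, with myocytes at 13.5, 4.58 and 12.4 CPM and MuSC/myoblasts at 8.33, 5.32 and 7.95 CPM behind it.

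Of the target genes, Hes1 had the widest reach. It was highest in pericyte/smooth muscle cells, at 437 (391 to 488), 362 (313 to 415) and 425 (370.5 to 485) CPM, then in endothelial cells at 193, 302 and 208 CPM, tenocytes at 181, 259.8 and 234 CPM and FAPs at 164, 189.9 and 141 CPM. Over the libraries together the intervals of endothelial, Schwann/glial and tenocyte cells overlapped each other in that order, and FAPs lay below them. Macrophages/monocytes had 146, 60.4 and 104 CPM and MuSC/myoblasts 104, 92.9 and 87.7 CPM. Hes1 also responds to signals other than Notch.

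Hey1, a target known from arterial endothelium and from quiescent muscle stem cells, was led by endothelial cells at 36.2 (32.4 to 40.3), 33.1 (28.7 to 37.96) and 32.4 (29.0 to 36.1) CPM, and MuSC/myoblasts followed at 26.8, 23.8 and 22.7 CPM. Heyl, which shares those stem cells with Hey1 and is a mark of pericytes, was led by pericyte/smooth muscle cells at 112 (89.3 to 139), 98.4 (74.2 to 128) and 84.96 (61.7 to 114) CPM and MuSC/myoblasts at 78.5, 74.2 and 62.3 CPM. Both target genes were below 4 CPM in macrophages/monocytes, where Hey1 stood at 1.04, 1.27 and 0.858 CPM and Heyl at 0.398, 0.354 and 0.327 CPM.

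Within the muscle lineage the receptors Notch1 and Notch3, the target Heyl and the ligand Jag1 were higher in 2 Pax7-rich sub-clusters than in the main myocyte sub-cluster, and the ligand Dll1 was lower in them. The cells were split into sub-clusters, which were put in order by their level of Myog, the transcription factor of terminal differentiation, and libraries were pooled for this description. Pax7, the marker of muscle stem cells, stood at 167 and 222 CPM in the 2 largest of the sub-clusters lowest in Myog and at 7.07 CPM in the main myocyte sub-cluster. Notch3 in those 3 sub-clusters was 149 (136 to 164), 201 (181 to 224) and 8.42 (6.36 to 10.9) CPM. Heyl followed with 126 (114 to 139), 163 (145 to 183) and 11.1 (8.74 to 13.97) CPM. Notch1 had 94.7 (84.2 to 106), 116 (101 to 134) and 35.5 (31.1 to 40.3) CPM. The ligand Jag1 ran the same way, with 38.6 (31.99 to 46.2), 48.1 (38.3 to 59.7) and 2.56 (1.49 to 4.09) CPM. Jag1 did not follow Pax7 in all sub-clusters: it had 17.7 (12.8 to 23.8) CPM in another Pax7-rich one, led by Pgf and Fos, with 210.0 CPM of Pax7, which overlapped the 12.7 (9.02 to 17.3) CPM of one with 91.8 CPM of Pax7.

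The ligand Dll1 was the reverse in these 3 sub-clusters. It had 1.62 (0.527 to 3.79) and 2.93 (0.953 to 6.85) CPM in the same Pax7-rich sub-clusters, 44.8 (40.1 to 49.98) CPM in a sub-cluster of Myod1- and Myog-positive dividing cells and 64.4 (58.4 to 70.8) CPM in the main myocyte sub-cluster. In every library the Dll1 level of the main myocyte sub-cluster, at 66.2, 58.03 and 64.5 CPM, was above that of both these Pax7-rich ones, which ran to at most 4.86 CPM. A second myocyte sub-cluster of 32 cells went against this, with 4.44 (0.112 to 24.7) CPM of Dll1. In the Pax7-rich sub-cluster led by Pgf and Fos, Dll1 had 11.1 (7.33 to 16.2) CPM, above the 2 Pax7-rich ones first named and overlapping the 11.4 (7.93 to 15.8) CPM of the sub-cluster with 91.8 CPM of Pax7. The order was not used to choose the genes, but sub-clusters were formed on the cells' other transcripts, so that no test was made. Hes1 was highest, at 302 (281 to 325) CPM, in the one led by Pgf and Fos, where Egr1 and Hspa1a led too, genes that like Fos are known to be induced by tissue dissociation, while the other Pax7-rich sub-clusters above had 29.2 and 45.2 CPM. Heyl and Hey1 were highest there too, at 187 (171 to 205) and 75.8 (65.2 to 87.5) CPM. In the Pax7-rich sub-cluster with the most Pax7, Hes1 had 1, 35 and 41 UMIs from 35, 34 and 56 cells of young PBS, old PBS and old rMETRNL.

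**Figure D2:**
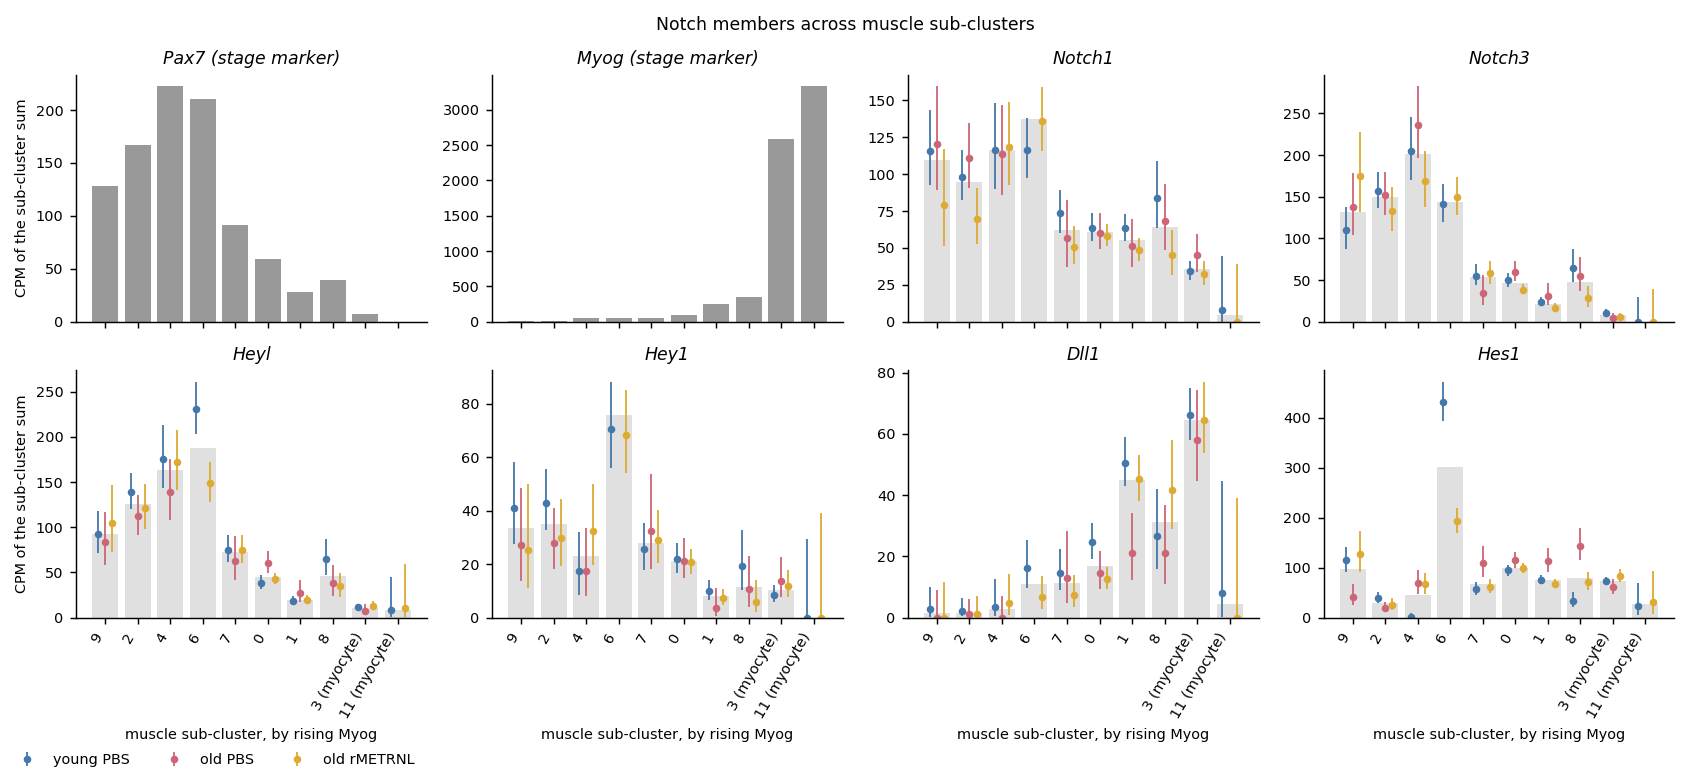
Levels of Pax7, Myog and members in the sub-clusters of MuSC/myoblasts and myocytes, in CPM, ordered from left to right by rising Myog. Grey columns are the libraries together, and points with exact 95% Poisson intervals are the libraries with at least 10 cells in the sub-cluster. Notch3 and Heyl were higher in the sub-clusters on the left than in the 2 myocyte sub-clusters, and Dll1 was highest in the main myocyte sub-cluster, but the levels did not rise or fall steadily from left to right.

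Within the endothelium, sub-clusters were named from markers as arterial-like, venous-like, capillary-like and tip-like, and the ligands separated these. In the arterial-like cells (37, 55 and 40 cells) Jag1 reached 428, 168 and 279 CPM and Jag2 291, 127 and 226 CPM. In the venous-like cells, led by Ackr1 and Selp, genes of postcapillary vessels, Jag1 had 37.98, 35.4 and 40.5 CPM and Jag2 7.16, 9.88 and 12.97 CPM. Hey1 stood at 121, 102 and 83.8 CPM in arterial-like cells, and venous-like cells held 4, 2 and 1 UMIs of it.

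Of the 4 subtypes, Dll4 was highest in the tip-like cells, at 188 (162 to 216), 230.2 (192 to 274) and 162 (145 to 179.6) CPM, and low in venous-like cells, at 10.5, 4.94 and 15.7 CPM. Arterial-like cells overlapped the tip-like ones in every library, at 148, 204 and 122 CPM. Capillary-like cells, named from Gpihbp1 and other capillary markers, had 94.3, 144 and 105 CPM of Dll4 and 217, 254 and 239 CPM of Notch1. They were uneven, and 1 of their 3 sub-clusters, of 336 cells led by Egr1 and Fos among others, had 209, 214 and 183 CPM of Dll4, with intervals that overlapped the tip-like ones. Notch1 in arterial-like cells was 301, 385 and 282 CPM. With the subtypes taken whole, the tip-like level of Dll4 was above the capillary-like one in each library, and the venous-like level was the lowest of the 4 subtypes.

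**Figure D3:**
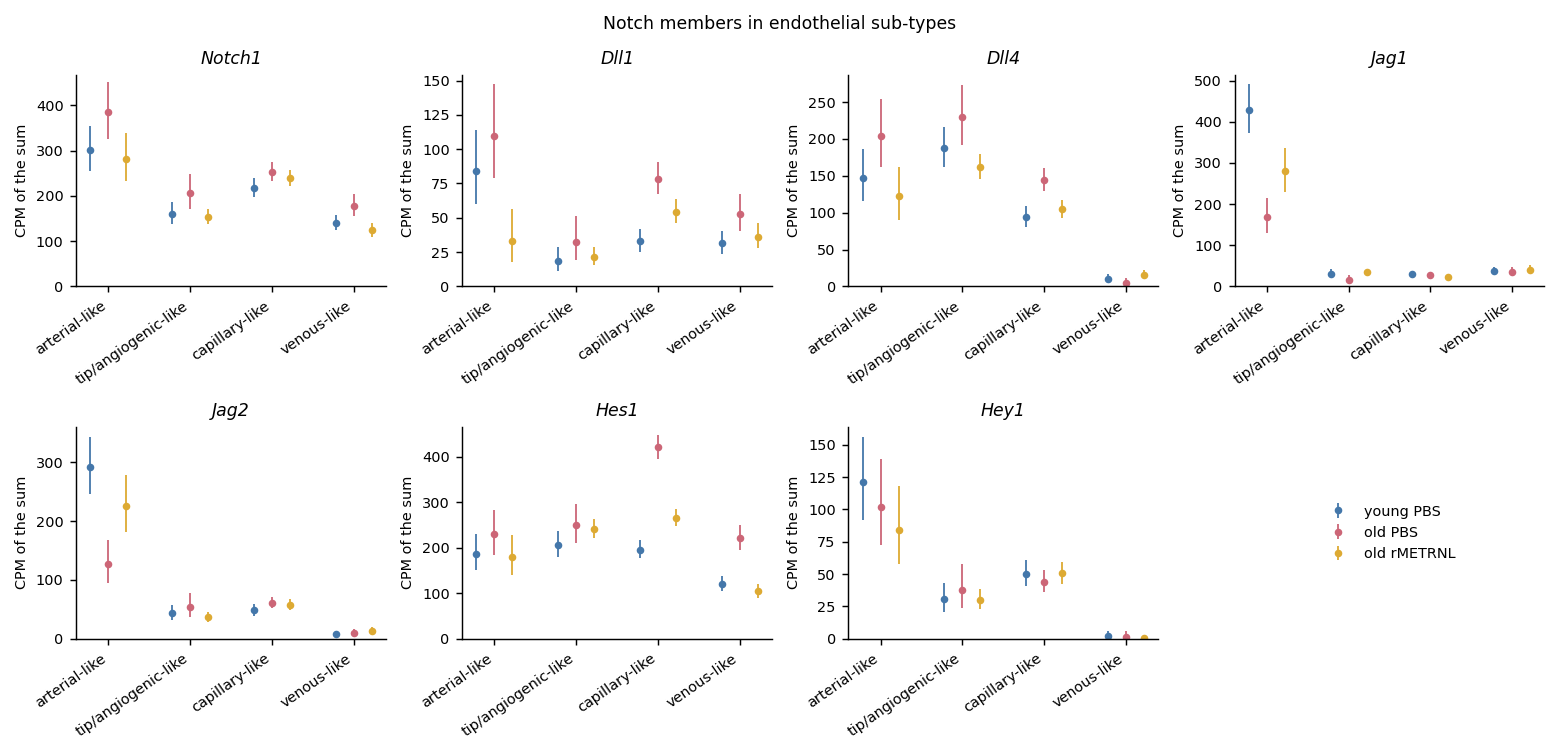
Levels of members in the endothelial subtypes, in CPM, with 1 point per library and bars for exact 95% Poisson intervals. Jag1, Jag2 and Hey1 were highest in arterial-like cells, Dll4 in tip-like and arterial-like cells, with venous-like cells at the bottom for Dll4, Jag2 and Hey1.

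The age contrast asks how injured old muscle differed from injured young muscle, and is the ratio of old PBS to young PBS. A gene was counted as past the threshold when it had at least 50 UMIs in the 2 libraries together, when its ratio was at least 1.5 or at most 1 over 1.5, and when the exact 95% interval of the ratio left out 1. Over the 7 classes 48 pairs of member and class could be examined, of which 4 were higher and 6 lower in old PBS. The share of all genes of a class that passed the same threshold is given beside each count of members, and the members' counts are too few to set them apart from these shares.

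**Figure D4:**
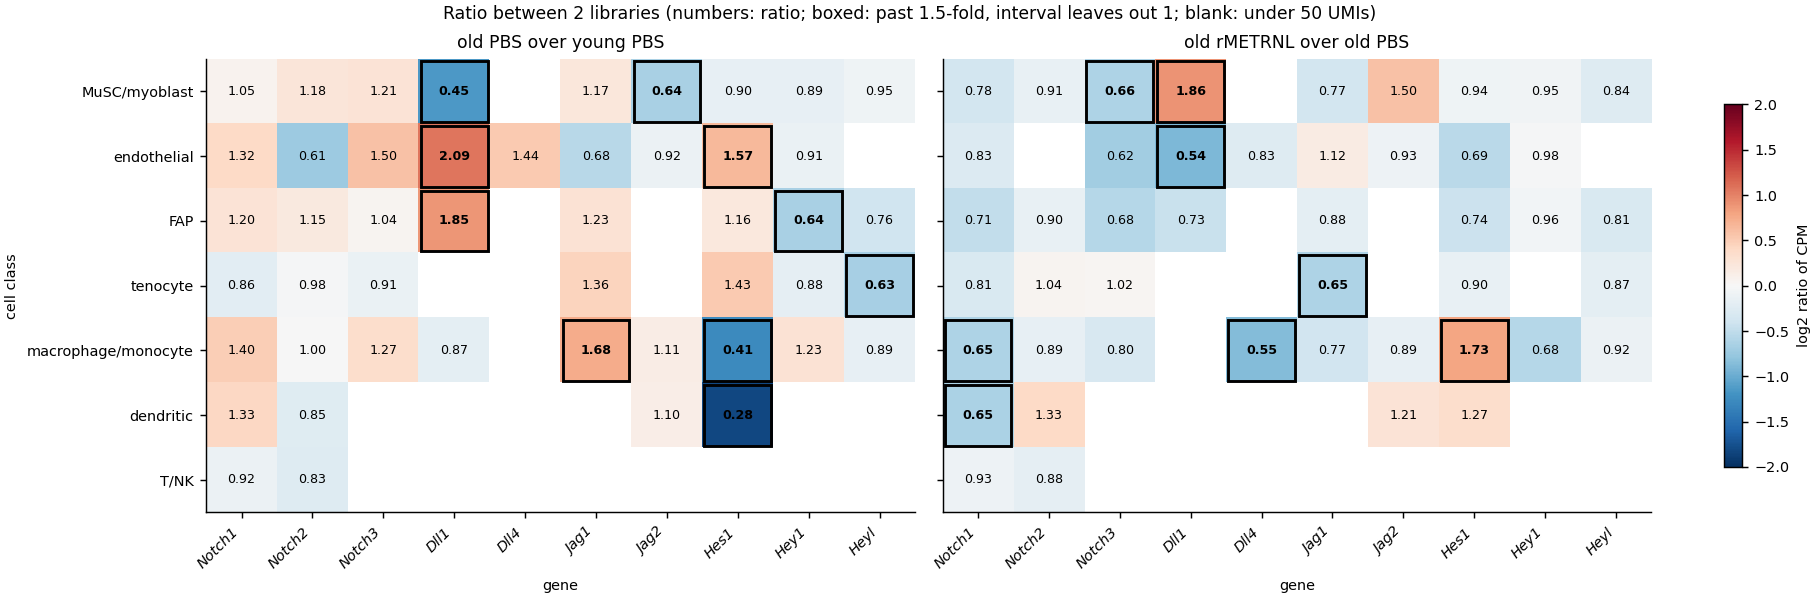
Ratio of CPM of each member in each of the 7 classes for old PBS over young PBS (left) and old rMETRNL over old PBS (right), coloured on a log2 scale, boxed where past 1.5-fold with an interval that leaves out 1, and blank below 50 UMIs. The boxed values run from 0.284 to 2.09.

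In MuSC/myoblasts, 9 members could be examined, with none higher and 2 lower in old PBS, beside 5.0% of all genes of the class higher and 2.57% lower. Dll1 stood at 24.7 (21.99 to 27.7), 11.2 (8.55 to 14.4) and 20.8 (18.3 to 23.5) CPM, so that young PBS and old rMETRNL lay above old PBS with no overlap of intervals. Its ratio of old PBS to young PBS was 0.452 (0.337 to 0.597), and 0.720, not past the threshold, with a stricter cell filter. Within the sub-cluster of Myod1- and Myog-positive dividing cells Dll1 had 50.5, 21.3 and 45.1 CPM, a ratio of 0.421 (0.239 to 0.695) with 17 UMIs from 19 cells in old PBS, and over single sub-clusters with at least 20 UMIs the ratio was above 1 in 0 and below 1 in 4 of 4. With the shares of the sub-clusters held fixed, the ratio over the class was 0.514. Jag2 was the other, at 8.33, 5.32 and 7.95 CPM and a ratio of 0.638 (0.407 to 0.974), which with fixed shares was 0.679, short of the threshold, and its call was kept in 10 of 14 alternative settings. The receptors changed less: Notch3 had a ratio of 1.21 (1.09 to 1.35) and Notch1 one of 1.05 (0.934 to 1.17). The targets Heyl, at 0.946 (0.839 to 1.06), Hey1, at 0.888 (0.718 to 1.09), and Hes1, at 0.896 (0.807 to 0.995), did not pass the threshold. Notch2 and Jag1 had ratios of 1.18 (0.976 to 1.43) and 1.17 (0.8996 to 1.52). The muscle stage genes did not move one way in this class, with 2 of 10 higher and 1 lower in old PBS. The lower one was Mymk, at 47.9, 27.1 and 38.1 CPM. Myog, with 143, 95.9 and 129 CPM, and Myod1, with 160, 116 and 151 CPM, also had their lowest level in old PBS. The 2 higher ones were Acta1, a gene of mature fibres, at 54.6, 114 and 64.8 CPM, and Ckm, at 2.78, 10.6 and 9.58 CPM. Their part in the result was not tested beyond the fixed shares. A sub-cluster of 80 cells whose leading genes were those of macrophages, such as Ms4a7, Cd74 and Lyz2, with a median of 2201 UMIs, held 2.64% of the young PBS cells of the muscle lineage, 15.8% of the old PBS cells and 8.18% of the old rMETRNL cells. Without such sub-clusters the ratio of Jag2 was 0.655 with an interval that reached 1, and that of Dll1 stayed past the threshold. In this class the 14 macrophage/monocyte markers summed to 560, 741 and 675 CPM and the 17 dissociation-stress genes to 3220, 3360 and 3501 CPM, with 3 of the 17 higher and 2 lower in old PBS. Their part in the ratios was not tested.

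In endothelial cells, 9 members could be examined, with 2 higher and none lower in old PBS, beside 7.34% of all genes higher and 7.65% lower. Dll1 had 28.8 (25.4 to 32.4), 60.1 (54.2 to 66.6) and 32.4 (29.0 to 36.1) CPM, with old PBS above the other libraries and no overlap, and its ratio was 2.09 (1.78 to 2.46). Hes1 had 193 (184 to 202), 302 (288 to 316) and 208 (199.5 to 217) CPM and a ratio of 1.57 (1.47 to 1.67). With sub-cluster shares held fixed the ratios were 1.75 for Dll1 and 1.27 for Hes1. Summed over the 17 dissociation-stress genes, the level in endothelium was 12948, 16968 and 14117 CPM, and 4 of the 17 genes were past the threshold as higher in old PBS. Without the sub-clusters led by such genes the ratio of Hes1 was 1.37, below the threshold.

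The other endothelial genes, summed over the class, moved by less than 1.5-fold or had intervals that reached 1. Dll4 had a ratio of 1.44 (1.297 to 1.61) and Notch1 one of 1.32 (1.22 to 1.42), both above 1 with intervals that left it out. Jag1 was lower, at 0.681 (0.578 to 0.801), and with sub-cluster shares held fixed it was 0.627, a change of more than 1.5-fold. In the arterial-like cells, singled out after their values were seen, Jag1 had a ratio of 0.392 (0.293 to 0.5198). Of the other ligands there, Jag2 was lower too, at 127 CPM in old PBS against 291 CPM in young PBS. Dll1 and Dll4 went the other way with overlapping intervals, at 109.5 against 84.0 CPM and 204 against 148 CPM. Jag2 and Hey1 over all endothelial cells had ratios of 0.922 (0.801 to 1.06) and 0.915 (0.764 to 1.09). Notch2, at 0.607 (0.309 to 1.13), and Notch3, at 1.496 (0.895 to 2.501), rested on few UMIs. Markers of other cells moved with these ratios as well. The 14 macrophage/monocyte markers summed to 661, 1132 and 932 CPM in endothelial cells, the 12 FAP markers to 226, 402 and 217 CPM and the 12 myocyte markers to 40.4, 188 and 65.8 CPM, against 22445, 22546 and 18365 CPM in myocytes themselves. The part of these and of the depth given above was not tested.

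In FAPs, 8 members could be examined, with 1 higher and 1 lower, beside 6.09% of all genes higher and 5.77% lower. Dll1 was the higher one, from few UMIs (45, 56 and 60), at 0.949, 1.76 and 1.28 CPM and a ratio of 1.85 (1.23 to 2.801). This call was lost in 3 of 14 alternative settings, doublet calls kept being one, down to a ratio of 1.36 for Dll1. Endothelial cells of the same libraries had 28.8, 60.1 and 32.4 CPM of Dll1, with old PBS again the highest. RNA from outside the cells can give UMIs at levels as low as those of FAPs, and its part was not tested. Hey1 was the lower one, at 7.72, 4.95 and 4.77 CPM and 0.641 (0.529 to 0.775), or 0.699 with sub-cluster shares held fixed, which is short of the threshold. Hes1, with 164, 189.9 and 141 CPM, and Jag1, with 44.1, 54.2 and 47.5 CPM, had ratios of 1.16 (1.12 to 1.197) and 1.23 (1.15 to 1.31). The other 4 members examined had ratios from 0.757 for Heyl to 1.204 for Notch1. In tenocytes 7 members could be examined, none higher and 1 lower, beside 5.77% and 5.20% of all genes. The lower one was Heyl, at 22.4, 14.2 and 12.4 CPM and a ratio of 0.634 (0.408 to 0.961). Of the muscle stage genes 4 could be examined in tenocytes, with 1 higher and 3 lower in old PBS. Of the 17 dissociation-stress genes 0 were higher and 2 lower. The part of these in the ratio of Heyl was not tested. Tenocyte Hes1 stood at 181, 259.8 and 234 CPM, a ratio of 1.43 (1.28 to 1.596) that did not reach 1.5. The other 5 members examined had ratios from 0.864 for Notch1 to 1.36 for Jag1.

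In macrophages/monocytes, 9 members could be examined, with 1 higher and 1 lower, beside 5.53% of all genes higher and 5.44% lower. Hes1 was the lower one, with 146 (143 to 148), 60.4 (58.8 to 62.01) and 104 (102 to 106) CPM in young PBS, old PBS and old rMETRNL, none of which overlapped, and a ratio of 0.414 (0.401 to 0.427). Jag1 was the higher one, at 8.95 (8.36 to 9.57), 15.02 (14.2 to 15.8) and 11.5 (10.9 to 12.2) CPM and 1.68 (1.54 to 1.83), which with sub-cluster shares held fixed was 1.39, short of the threshold. Notch1 was 1.399 (1.34 to 1.46) and stayed below the threshold, and Notch2 was 0.999 (0.962 to 1.04). The other 5 members examined had ratios from 0.873 for Dll1 to 1.27 for Notch3. In dendritic cells Hes1 was lower too, the 1 such gene of 4 examined with none higher, beside 5.84% of all genes lower and 4.34% higher. It had 24.98 (21.3 to 29.1), 7.103 (4.79 to 10.1) and 9.04 (6.94 to 11.6) CPM and a ratio of 0.284 (0.186 to 0.422), with young PBS above both old libraries. Dendritic cells also had UMIs of macrophage/monocyte markers, as given above. The part of macrophage RNA in their Hes1 was not tested. The other 3 members examined had ratios from 0.845 for Notch2 to 1.33 for Notch1. The dissociation-stress genes summed to 11716, 9113 and 11880 CPM in dendritic cells. Of the 2 members examined in T/NK cells none passed in either direction, beside 5.78% higher and 4.98% lower, with Notch1 at 0.924 (0.646 to 1.32) and Notch2 at 0.832 (0.529 to 1.298). Hes1 in T/NK cells had 37, 12 and 16 UMIs, 22.3, 8.12 and 19.6 CPM, too few for the count, T/NK cells had no Notch3, and Dll1, Dll4, Jag1, Jag2, Hey1 and Heyl each had at most 7 UMIs in a library of this class.

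Hes1 in macrophages/monocytes lay mostly in 3 of the 11 sub-clusters, with 461 (452 to 471), 340.5 (333 to 348) and 245 (239 to 250.4) CPM over the libraries together, against at most 72.97 CPM in each of the other 8, although 1 of these, of 372 cells, reached 153 CPM in old PBS. The second of the 3 was led by the heat-shock genes Hspa1a, Hspa1b and Hsph1. These 3 sub-clusters, singled out after their Hes1 levels were seen, held 39.2% of the young PBS cells of the class, 17.3% of the old PBS cells and 31.0% of the old rMETRNL cells, and 84.3%, 66.4% and 80.5% of its Hes1 UMIs. Within them Hes1 was 355, 309 and 318 CPM, and in the other 8 together 35.1, 23.3 and 27.7 CPM. With the shares of all 11 held fixed the ratio of old PBS to young PBS was 0.858 in place of 0.414. Over single sub-clusters the ratio was above 1 in 4 and below 1 in 7 of 11. The dissociation-stress genes summed to 9202, 8050 and 8858 CPM in this class, with none of 17 higher and 4 lower in old PBS, and their part in the result was not tested.

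**Figure D5:**
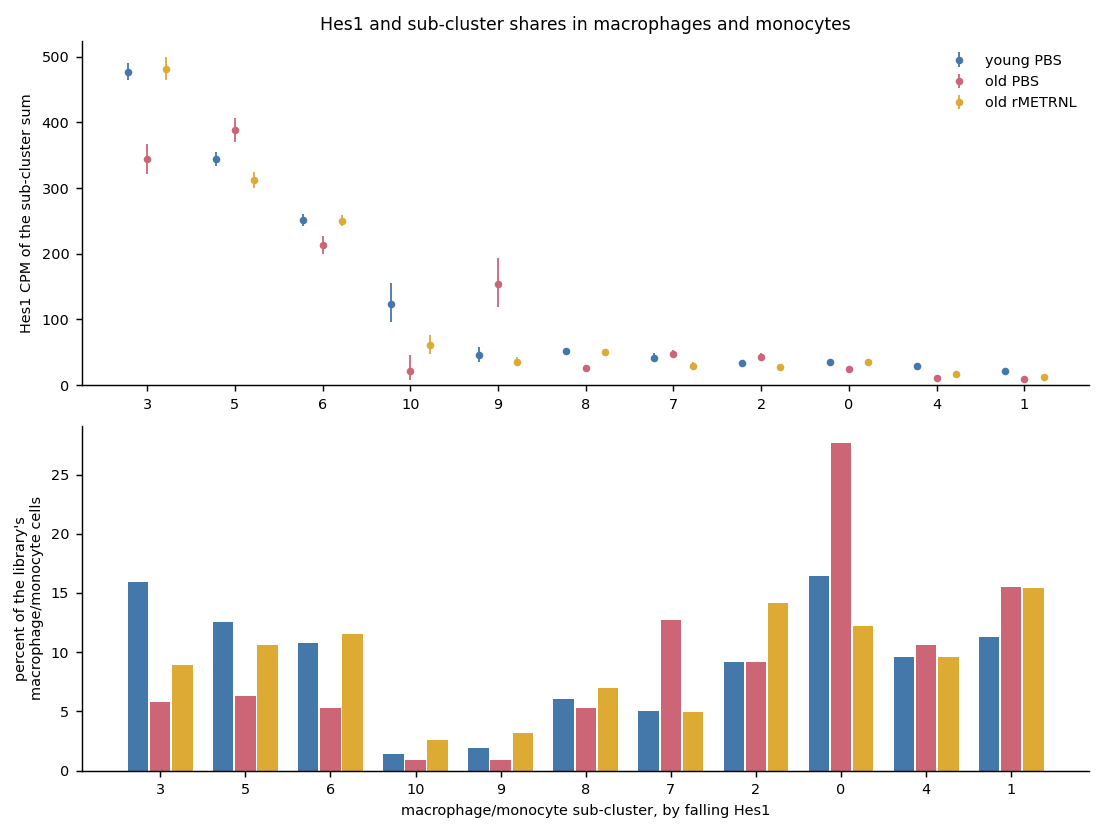
Hes1 in the sub-clusters of macrophages/monocytes, as the level in CPM with 1 point per library and exact 95% Poisson intervals (top) and as the share of the library's cells of the class in each sub-cluster (bottom, bars), ordered by falling Hes1. The 3 sub-clusters rich in Hes1 held 17.3% of cells in old PBS against 39.2% in young PBS.

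The treatment contrast asks how old injured muscle given rMETRNL differed from old injured muscle given PBS, and is the ratio of old rMETRNL to old PBS. It shares the old PBS library with the age contrast, so that the ratios of both contrasts move with that library. Over the classes 46 pairs of member and class could be examined, of which 2 were higher and 6 lower in old rMETRNL. The shares of all genes past the threshold ran over the classes from 1.92% to 4.73% higher and from 3.38% to 5.35% lower. The members are few, and no test set their counts apart from these shares.

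In MuSC/myoblasts, 1 member was higher and 1 lower of 9, beside 1.92% of all genes higher and 3.97% lower. Dll1, with the levels given above, had a ratio of 1.86 (1.4 to 2.499), of 1.45 with sub-cluster shares held fixed and of 1.21 with the stricter cell filter, the last 2 not past the threshold. Over single sub-clusters the ratio was above 1 in 2 and below 1 in 1 of 3: it was 2.12 (1.28 to 3.74) in the Myod1- and Myog-positive dividing sub-cluster, again on the 17 UMIs of old PBS, and 0.852 (0.514 to 1.45) in the largest sub-cluster, led by histone genes. Notch3, at 76.4, 92.7 and 60.8 CPM, was lower with a ratio of 0.655 (0.585 to 0.735), which with fixed shares became 0.834. Notch1 was 0.779 (0.694 to 0.875) and Heyl 0.8395 (0.743 to 0.949), both below 1 with intervals that left it out and short of the threshold. The first 2 Pax7-rich sub-clusters described above held 17.2% and 15.8% of the old muscle lineage cells with PBS, and 8.88% and 13.1% with rMETRNL, while the Pax7-rich one led by Pgf and Fos went the other way, with 2.79% and 11.4%. The other 5 members examined had ratios from 0.775 for Jag1 to 1.496 for Jag2. Dll4 was under 50 UMIs in this class.

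In endothelial cells, none of 8 members was higher and 1 was lower, beside 4.73% and 5.35% of all genes. Dll1 had a ratio of 0.539 (0.463 to 0.627), with the levels of old rMETRNL and young PBS overlapping in their intervals and old PBS above both. Hes1, at 0.6896 (0.648 to 0.734), Dll4, at 0.833 (0.753 to 0.921), and Notch1, at 0.8304 (0.773 to 0.892), were below 1 and short of the threshold. Jag1 was 1.12 (0.953 to 1.33) over all endothelial cells, and the other 3 members examined had ratios from 0.619 for Notch3 to 0.979 for Hey1. In arterial-like cells the level of Jag1 was 168 CPM with PBS and 279 CPM with rMETRNL, a ratio of 1.66 (1.21 to 2.29). These cells were singled out after their values were seen, and the low Jag1 value with PBS enters both contrasts. Of the other ligands there, Jag2 went the same way, from 127 to 226 CPM. Dll1 and Dll4 went the other way, from 109.5 to 33.0 CPM and from 204 to 122 CPM.

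In macrophages/monocytes, 1 member was higher and 2 were lower of 9, beside 4.57% of all genes higher and 3.38% lower. Hes1 was the higher one, with a ratio of 1.73 (1.67 to 1.79), and of 1.09 with sub-cluster shares held fixed. Notch1 was lower, at 40.4 (39.2 to 41.7), 56.6 (55.1 to 58.2) and 36.9 (35.8 to 38.1) CPM and a ratio of 0.653 (0.626 to 0.681), and its ratio over single sub-clusters was above 1 in 1 and below 1 in 10 of 11. With sub-cluster shares held fixed it was 0.708, short of the threshold, and the call was kept in 11 of 14 alternative settings. Dll4, with the few UMIs given above and 0.126, 0.376 and 0.205 CPM, had 0.546 (0.304 to 0.961), and the call was lost in 6 of 14 alternative settings. Endothelial cells had 75.9, 109.7 and 91.3 CPM of Dll4 and FAPs 0.0844, 0.188 and 0.107 CPM, with old PBS the highest in both, and the part of RNA from outside the cells was not tested. The other 6 members examined had ratios from 0.675 for Hey1 to 0.923 for Heyl. In dendritic cells none of 4 was higher and 1 was lower, beside 4.33% and 3.43% of all genes. It was Notch1, at 13.6, 17.99 and 11.6 CPM and a ratio of 0.646 (0.466 to 0.895). Macrophages/monocytes had more Notch1 in each library, and the part of their RNA in the dendritic level was not tested. Dendritic Hes1 had 1.27 (0.811 to 2.04), Notch2 1.33 (1.11 to 1.58) and Jag2 1.21 (0.728 to 2.07).

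In tenocytes none of 6 members was higher and 1 was lower, beside 3.12% and 4.66% of all genes. This was Jag1, at 19.1, 26.1 and 16.9 CPM and a ratio of 0.649 (0.448 to 0.943), and the other 5 members examined had ratios from 0.809 for Notch1 to 1.04 for Notch2. In FAPs none of 8 passed, beside 3.91% of all genes higher and 4.12% lower, and Hes1 and Notch3 had ratios of 0.743 (0.717 to 0.7695) and 0.677 (0.608 to 0.754), and Notch1 one of 0.713 (0.658 to 0.773). The other 5 members examined had ratios from 0.731 for Dll1 to 0.962 for Hey1. In T/NK cells none of 2 passed, beside 3.48% and 3.95% of all genes, with Notch1 at 0.934 (0.585 to 1.46) and Notch2 at 0.879 (0.471 to 1.58).

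Among pericyte/smooth muscle cells, with fewer than 100 cells in 2 libraries, Notch3 stood at 564, 639 and 568 CPM and Heyl at 112, 98.4 and 84.96 CPM. Jag1 was lower in young PBS than in both old libraries, at 86.4, 165 and 172 CPM, and so was Notch1, at 68.9, 127 and 98.5 CPM, although its intervals in young PBS and old rMETRNL overlapped. The ratios of old PBS to young PBS were 1.91 (1.37 to 2.66) for Jag1 and 1.85 (1.27 to 2.699) for Notch1. The libraries filled the sub-clusters of this class differently: the 2 with the most Notch1, at 199 and 147 CPM over the libraries together, held 11.8% and 4.71% of the young PBS cells, 33.7% and 14.4% of the old PBS cells and 25.6% and 11.6% of the old rMETRNL cells. A sub-cluster of 30 cells whose leading genes included Lyz2, Apoe, Trem2 and C1qa, known from macrophages, had 53.7 (33.2 to 82.1) CPM of Jag1 and held 18.8% of the young PBS cells of the class, 6.73% of the old PBS cells and 8.14% of the old rMETRNL cells. The dissociation-stress genes summed to 14134, 22927 and 23541 CPM in these cells. The part of these in the ratios was not tested.

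A list of 45 further pathway genes covered other receptors and ligands, ligand uptake, receptor glycosylation, cleavage and turnover, the nuclear complex and other targets. In the age contrast 224 pairs of gene and class could be examined, with 10 higher (4.46%) and 13 lower (5.804%) in old PBS. The shares of all genes past the threshold ran over the 7 classes from 4.34% to 7.34% higher and from 2.57% to 7.65% lower. In MuSC/myoblasts 3 were higher and 1 lower. Lfng, which adds sugars to Notch and changes which ligand it answers, had a ratio of 1.95 (1.105 to 3.44). Psen2, a catalytic subunit of gamma-secretase, the enzyme that frees the intracellular part, had 1.55 (1.18 to 2.02). Spen, a corepressor that binds RBPJ, had 1.54 (1.32 to 1.78), and the ligand-like Dlk2 had 0.484 (0.218 to 0.974). Dlk2 rested on 10 UMIs in old PBS and 45 in young PBS, and Lfng on 26 and 29. Ratios with sub-cluster shares held fixed were computed for the members alone.

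In macrophages/monocytes Fbxw7, a ubiquitin ligase adaptor that sends Notch to degradation, was higher with 1.54 (1.46 to 1.62). Lower were Dtx3l, a Deltex-family ubiquitin ligase, with 0.612 (0.591 to 0.634), the receptor Notch4 and the target Hes7. The target Nrarp, a feedback inhibitor, was lower in T/NK cells with 0.368 (0.248 to 0.535). In endothelial cells Aph1b and Maml3 were higher and Rfng and Hes6 lower. FAPs had Notch4 higher and Neurl1a and Hes5 lower, tenocytes Maml3 higher and Numb and Maml2 lower, and dendritic cells Poglut1 higher and Mfng and Hes6 lower.

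In the treatment contrast 218 pairs could be examined, with 2 higher (0.917%) and 6 lower (2.75%) in old rMETRNL, and none of them in FAPs or endothelial cells. The shares of all genes ran over the classes from 1.92% to 4.73% higher and from 3.38% to 5.35% lower. In MuSC/myoblasts Dlk2 was higher with 2.79 (1.42 to 6.097), and Lfng and Psen2 were lower with 0.4597 (0.258 to 0.82) and 0.501 (0.379 to 0.665). Dlk2 rested on 63 UMIs with rMETRNL and 10 with PBS, and Lfng on 27 and 26. Numb, an inhibitor of Notch that moves the receptor into endosomes, was higher in tenocytes with 1.82 (1.11 to 3.12). Neurl1a was lower in macrophages/monocytes, Poglut1 in dendritic cells, and Lfng and Ncstn in T/NK cells.

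Across the 21 sums of class and library, the genes whose log2(CPM + 1) was most like that of a member were named by Pearson's r, as a description in which classes of 1 library share that library. For Dll4 these were Gipc3, Nos3 and Flt4, with r from 0.986 to 0.993. Notch3 was followed most closely by Hacd1, Peg3 and BC034090, at 0.981 to 0.986, and Heyl by Capn6, Kctd15 and Cdh2, at 0.983 to 0.987. Hey1 had Sema6a, Bcar1 and Rdx at 0.9601 to 0.969. The lowest best match among the members was that of Jag2, with Wasf2 at 0.924, and Notch2 had Adcy7 at 0.929. Dll1 had Zfp664 at 0.9497, Jag1 Txndc12 at 0.951, Hes1 Tspan4 at 0.954 and Notch1 Pkp4 at 0.942.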

How the data were processed

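Single-cell RNA was measured in 3 libraries, 1 per group. The deposited matrices hold raw UMI counts of each gene in each barcode, which the authors made with Cell Ranger. The submitters' processing notes name versions 3.1.0 and 5.0.0 of it and the build mm10, the methods name yet another version, and which one made these files was not settled here. No value column was left without a sample.

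Barcodes were kept if they had 500 or more genes and less than 10% of their UMIs from mitochondrial genes. Scrublet's automatic threshold called 0 doublets, so the highest-scoring cells, at 0.8% per 1000 barcodes, were removed. The libraries shared 80 (young PBS and old PBS), 58 (young PBS and old rMETRNL) and 76 (both old libraries) barcodes, under 1% of any library. Counts were scaled and log-transformed, and 2000 variable genes without the members, 30 principal components, 20 neighbours and Leiden at resolution 0.8 gave 19 clusters (scanpy 1.11.5, anndata 0.12.19, leidenalg 0.10.2, Python 3.11.15). Clusters and sub-clusters were named from marker lists, by a rule set after the cluster tables had been seen. Unnamed clusters held 214, 467 and 309 cells in young PBS, old PBS and old rMETRNL, and 138, 220 and 233 cells were removed in sub-clusters whose leading genes, set against all cells, held more markers of another class than of their own or that were thin and unled. Kept were 6 sub-clusters that such markers led when set against their own class alone, and an alternative left them out.

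UMIs were summed per class and library and scaled to CPM. Levels have exact Poisson intervals and ratios the exact conditional binomial interval of the 2 counts (scipy 1.17.1), and the ratio calculation was tested on simulated data. With sub-cluster shares held fixed, a ratio compares means over sub-clusters that weight each library alike. With 1 library per group no p-value was computed. The rule for named genes took all 10 members in each class of at least 100 cells per library, of which those under 50 UMIs or short of the threshold are in part given as counts, ranges or in figures alone, and other pathway genes past 1.5-fold (up to 6 per class and contrast; 1 of them is counted but not reported here) and the 3 genes most like each member. The members and lists were chosen with earlier results of these data known. Positions are from GENCODE M21 on GRCm38, and promoter windows from RefSeq on GRCm38.p6. Alternatives covered filters, doublets, clustering, scaling, the UMI minimum and the fold.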

Additional observations from a re-analysis of the deposited data

Results flagged for a closer look

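Some ratios of old PBS to young PBS lay on opposite sides of 1 in different cell classes, each past 1.5-fold with a counting interval that left out 1. With 1 library per group the difference between classes was not tested. For Dll1 the ratio was 1.85 in FAPs, where it rested on 45 and 56 UMIs and was past the threshold in 11 of 14 alternatives, 2.09 in endothelial cells and 0.452 in MuSC/myoblasts, where it was 0.720, not past the threshold, with the stricter cell filter. For Hes1 it was 1.57 in endothelial cells, 0.414 in macrophages/monocytes and 0.284 in dendritic cells, where the part of macrophage RNA was not tested. With sub-cluster shares held fixed, Hes1 was at 1.27 in endothelial cells and 0.858 in macrophages/monocytes, neither past the threshold, and without stress-led sub-clusters it was at 1.37 in endothelial cells. In the treatment contrast, the ratio of old rMETRNL to old PBS for Dll1 was 1.86 in MuSC/myoblasts and 0.539 in endothelial cells, and this difference was not tested either. In MuSC/myoblasts the latter contrast gave 1.45 for Dll1 with sub-cluster shares held fixed and 1.21 with the stricter filter, neither past the threshold. The library of old PBS enters both contrasts.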

How the results depend on the processing

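No paired analysis was possible because each group has 1 library, and no replicate could be left out. Each ratio was recomputed under 14 alternatives, 4 of them chosen after seeing the data. All 18 ratios past the threshold, of 94 examined, kept their direction in each of the 14. A change of direction was not counted for the ratios short of the threshold. For scaling, ratios were divided by the median ratio of all genes, whose log2 lay between -0.054 and 0.045. Past the threshold at main settings were 10 pairs of member and class in the age contrast and 8 in the treatment contrast, and 23 and 8 pairs for the other pathway genes. In the age contrast the members' count was 20 with the mean of per-cell CPM, 6 with a minimum of 200 UMIs and 4 at 2-fold, and the pathway count was 7 with 200 UMIs and 3 at 2-fold. In the treatment contrast the members' count was 5 at clustering resolution 0.4, 5 with doublet calls kept, 5 with the stricter cell filter, 5 with 200 UMIs and 0 at 2-fold. The pathway count there was 15 with per-cell means, 13 with no UMI minimum, 2 with 200 UMIs and 4 at 2-fold. A higher minimum or fold passes fewer genes by construction, and no minimum admits more. Per-cell means had no counting interval, so calls there used the fold and the UMI minimum alone, which is a looser rule. The share of all genes past the threshold was computed at main settings alone, so these counts have no such share beside them. The cause of the other shifts was not tested.

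With the stricter filter (at least 1000 genes, under 5% mitochondrial UMIs) the ratio of Dll1 in MuSC/myoblasts was 0.720 in the age contrast and 1.21 in the treatment contrast, neither past the threshold. Hes1 in endothelial cells was at 1.37 without the stress-led sub-clusters. With per-cell means, Dll1 in endothelial cells was at 0.739 in the treatment contrast, Hes1 in macrophages/monocytes at 1.49 and Notch3 in MuSC/myoblasts at 0.688. Among the calls lost most often, Dll4 in macrophages/monocytes passed in 8 of 14 alternatives, Jag2 in MuSC/myoblasts and Notch1 in dendritic cells in 10 each, Dll1 in FAPs, Jag1 in tenocytes and Notch1 in macrophages/monocytes in 11 each and Hey1 in FAPs in 12. Depth limits the smaller classes, since under 50 UMIs no ratio was called.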
